A study of Mus musculus with 4 samples.

Results

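Cytosolic ribosomal protein genes encode the proteins of the large (60S) and small (40S) ribosomal subunits. Genes were taken by symbol: Rpl or Rps followed by a digit, or Rplp0, Rplp1, Rplp2 or Rpsa, leaving out the Rps6k kinases and symbols with "-ps", which marks pseudogenes. Of 22144 symbols in both deposited tables, 85 met the rule. By symbol alone, 51 were counted to the large and 34 to the small subunit, the latter including Rps19bp1, a binding partner of Rps19. Testing required a mean FPKM of 1 or more across the libraries, which 83 of them reached, among 10603 genes tested. FPKM counts sequenced fragments relative to transcript length and to the library's mapped total, so genes can be compared. The 85 comprised 76 core or stalk proteins and 9 copies or relatives, such as Rpl22l1 and Rps27l, of which 7 were tested. Levels were high: 71 of the 100 symbols with the highest mean FPKM were members of the set, and 15 of the top 20.

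The libraries were from induced regulatory T cells of C57BL/6 mice, 2 labelled WT and 2 labelled MSC KO (musculin, the transcription factor encoded by Msc). Sorted naive T cells of either genotype had been cultured for 3 days with plate-bound anti-CD3 and anti-CD28 (1 µg/ml) and TGF-beta (2 ng/ml), and this culture was shared by all 4 libraries. The labels do not give the targeted part of the gene, or the age or sex of the mice. Nor do they give whether replicates were separate animals or cultures. The limma p-values rest only on how far the label differences among these 4 libraries disagree, and on a prior from all genes. That disagreement may be technical. The authors deposited 1 table for WT 1 with MSC KO 1 (the first) and 1 for WT 2 with MSC KO 2 (the second). The fold changes and the limma test compared libraries within a table, as nothing in the labels tells whether both were scaled together. Levels set across the tables, including the order of the 4 libraries, the spread between replicates and whether groups overlap, take the deposited values as comparable, which was not tested.

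Msc went against the labels, at 0.0243 and 0.0178 FPKM in WT 1 and WT 2 and 0.331 and 0.939 FPKM in MSC KO 1 and MSC KO 2, so directions below are for the libraries as labelled. The 4 Treg markers differed among themselves. Foxp3, which defines Treg cells, was at 62.8 and 66.0 FPKM in WT, against 2.97 and 7.05 FPKM under the MSC KO label (adjusted p = 0.114, limma), and Ikzf2 at 9.38 and 9.91 against 2.06 and 6.66 FPKM. Ctla4 lay the other way (112 and 120 against 217 and 188 FPKM), and Il2ra overlapped (302 and 317 against 364 and 307 FPKM). Their sum was 486 and 512 FPKM in WT, against 586 and 508 FPKM. The 7 measured T cell markers summed to 1600 to 1680 FPKM. Markers of B, myeloid, erythroid, gamma delta T and NK cells summed to between 0 and 7.25 FPKM in each library, CD8 T cell markers to 9.13 to 19.8 FPKM and mast cell markers to 2.47 to 14.9 FPKM. Only 2 of 4 erythroid and 1 of 3 gamma delta T cell markers were measured, so those sums cover part of their lists. The mast cell sum came from Kit alone, as Cpa3, Mcpt4 and Fcer1a were listed at 0. Depth, estimated from the smallest steps between low values, was between 25700000 and 35700000 fragments per library. In bulk libraries, fewer cells of a type and less RNA per cell cannot be told apart.

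The ribosome holds about one copy of each core protein, and the cell makes them in step with ribosomal RNA. Transcripts of most ribosomal protein genes begin with a short run of pyrimidines, the terminal oligopyrimidine (TOP) tract. Through it the kinase mTORC1 and the RNA-binding protein LARP1 adjust translation with growth signals, so protein output can change without a change in transcript level. Activated T cells enlarge and build ribosomes before they divide.

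The tract is shown here because it is the sequence feature these genes are known for. RefSeq promoters (GRCm38.p6, not the mm9 build of the tables) were matched for 64 of the 85 genes, 56 of them core or stalk. Each sequence runs 5′ to 3′ on the gene's strand from 40 bases before the annotated start through 20 bases from the start on. Capitals mark the pyrimidine run that opens with C at the annotated start. The last 2 sequences, from the most abundant but one and from a stalk gene, have no such run there.
Rps6, chr4:86857348-86857407, minus strand: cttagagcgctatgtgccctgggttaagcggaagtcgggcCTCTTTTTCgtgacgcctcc
Rpl35, chr2:39005112-39005171, minus strand: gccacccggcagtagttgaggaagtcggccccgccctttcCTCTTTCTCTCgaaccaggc
Rpl28, chr7:4792925-4792984, plus strand: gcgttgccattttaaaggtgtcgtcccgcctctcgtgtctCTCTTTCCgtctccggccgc
Rps27, chr3:90213629-90213688, minus strand: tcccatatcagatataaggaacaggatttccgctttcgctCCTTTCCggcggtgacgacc
Rps21, chr2:180257339-180257398, plus strand: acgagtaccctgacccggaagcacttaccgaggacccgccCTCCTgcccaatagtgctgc
Rpl41, chr10:128549149-128549208, minus strand: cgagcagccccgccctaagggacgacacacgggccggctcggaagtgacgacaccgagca
Rplp0, chr5:115559427-115559486, plus strand: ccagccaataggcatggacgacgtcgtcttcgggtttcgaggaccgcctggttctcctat

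A C at the annotated start followed by at least 4 more pyrimidines, on the gene's strand, was found in 13 of 56 core and stalk genes (23.2%) and in 813 of 27025 genes in the promoter table (3.01%). It was in 4 of 17 genes of a list of translation factors and other TOP genes, in 0 of 65 mitochondrial ribosomal protein genes and in 0 of 8 copies and relatives. A run of at least 8 pyrimidines between -10 and +15, which allows for an annotated start that is a few bases off, was in 37.5% of the core and stalk genes and 11% of all genes. The letters CGGAAG, sought on both strands over the 300 bases of an entry, were in 69.6% of core and stalk genes against 18.8% of all genes. The mitochondrial ribosomal protein genes held them in 55.4%. TATAAA between -45 and -16 was in 0 of the 56, and in 2.57% of all genes. A gene with several annotated starts was counted if any of them had the feature. A match is a description of letters in this window, with the start as RefSeq annotates it, and CGGAAG can overlap a pyrimidine run on the other strand.

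Ribosomal protein transcripts made up a large part of the FPKM that carried a gene symbol, with 37.5% for WT 1, 37.2% for WT 2, 37.2% for MSC KO 1 and 39.2% for MSC KO 2. MSC KO 2 thus stood highest and the other 3 were close together. As a share of all FPKM, rows without a symbol included, the values were 18.8%, 17.7%, 17.1% and 18.3%, an order in which WT 1 is highest and MSC KO 1 lowest.

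**Figure D1:**
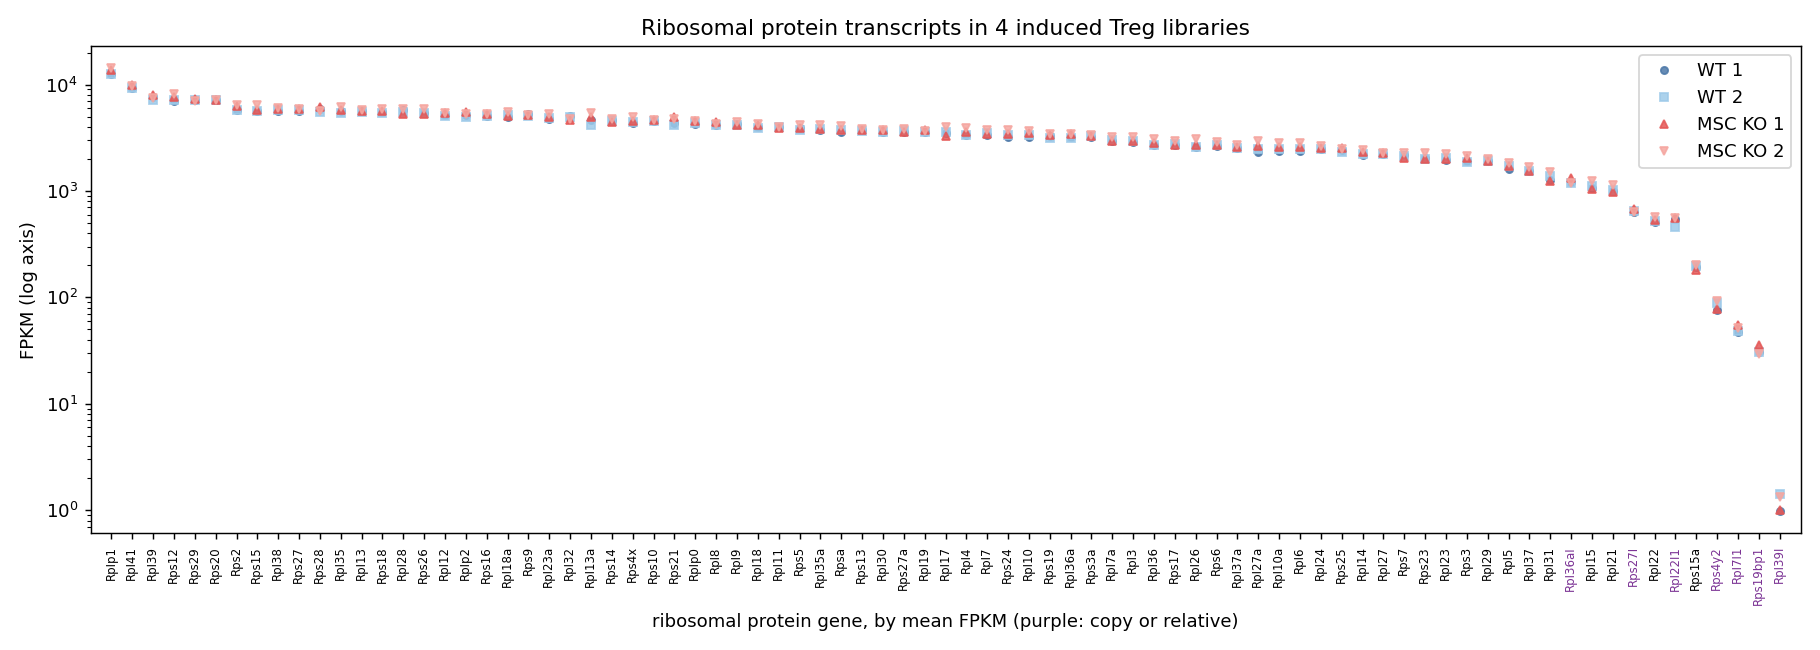
FPKM on a log axis (vertical) of 81 of the 83 tested ribosomal protein genes, ordered by mean FPKM (horizontal), with 1 symbol per library (circle WT 1, square WT 2, upward triangle MSC KO 1, downward triangle MSC KO 2). The 4 symbols of a gene lie almost on each other, while the genes span from Rplp1 at 12525 to 14274 FPKM down to Rpl39l near 1 FPKM, and copies or relatives (purple labels) fill most of the low end.

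Among the core and stalk genes the levels were high and their order was nearly fixed. Their median was 3591 FPKM for WT 1, 3652 for WT 2, 3748 for MSC KO 1 and 3918 for MSC KO 2, against a median of the gene means of 13.2 FPKM over all genes tested. At least 1000 FPKM was reached by 73 of the 76 in WT 1 and MSC KO 1, and by 74 in WT 2 and MSC KO 2. The log2 levels of the 83 genes had a Pearson r of 0.9995 between WT 1 and WT 2, 0.9987 between MSC KO 1 and MSC KO 2, and 0.9993 and 0.9992 between the libraries of the first and the second table. These are correlations across genes of different level, which are not replicates. The large subunit had a median of 3366 to 3705 FPKM over 45 core and stalk genes and the small subunit one of 4205 to 4619 FPKM over 31.

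The highest was Rplp1, a protein of the stalk that brings elongation factors to the ribosome (chromosome 9, mm9, 61761089 to 61762317). Its level was 12531 FPKM for WT 1, 12525 for WT 2, 13792 for MSC KO 1 and 14274 for MSC KO 2. Rpl41, which encodes one of the smallest proteins of the cell, came next (9365, 9267, 9979 and 9625 FPKM in the same order). Rpl39, a protein of the peptide exit tunnel, followed (7569, 7160, 7914 and 7550 FPKM), and its WT and MSC KO libraries overlapped. Rps12 was at 7069, 7103, 7578 and 8175 FPKM, with both MSC KO-labelled libraries above both WT. All of these have short transcripts. Across the 76 core and stalk genes the mean FPKM and the transcript length were weakly and inversely related (Pearson r -0.22, Spearman rho -0.27, log2 scales). FPKM of very short transcripts also depends on how the effective length was computed, which the labels leave unsaid.

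The low end held core genes too. Rps15a, a core protein of the small subunit, was at 191, 197, 180 and 201 FPKM. Rpl22, an RNA-binding protein of the large subunit that alpha beta T cell development needs, was at 516, 519, 537 and 567 FPKM. Rpl21 and Rpl15 had means of 1037 and 1116 FPKM. Ribosomal protein genes have many processed pseudogenes of near-identical sequence, so a level far below that of the other core proteins is uncertain: reads could have been shared with copies, and the authors' way of assigning them is not stated in the labels.

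The copies and relatives were mostly far lower. Rpl36al, a copy of Rpl36a, was at 1220, 1182, 1328 and 1193 FPKM, against 3248, 3121, 3403 and 3449 FPKM for Rpl36a. Rps27l, a p53-responsive relative of Rps27, was at 629, 642, 683 and 637 FPKM, against 5664 to 5946 FPKM for Rps27. Rpl22l1 was at 542, 461, 562 and 560 FPKM, close to its relative Rpl22. Rps4y2 (Rps4l in RefSeq) was at 75.6, 88.4, 78.1 and 91.8 FPKM, Rpl7l1 at 46.8, 48.6, 55.6 and 51.1 FPKM, and Rps19bp1, a binding partner of Rps19, at 30.8, 30.4, 35.4 and 29.5 FPKM. Rpl39l, known from testis, was at 0.977, 1.43, 1.00 and 1.33 FPKM. Below the filter were Rpl10l, another testis copy, listed at 0 in every library, and the muscle copy Rpl3l, with no library above 0.0374 FPKM.

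The comparison of MSC KO with WT asked how these transcripts differed with the label. The differences were small and mostly upward, and none passed. On the log2(FPKM + 1) scale the median difference of the 83 genes was 0.044 in the first and 0.10 in the second table, and 0.067 in the fit over both, against -0.0024, -0.041 and -0.018 over all 10603 genes. As ratios of MSC KO to WT, the medians were 1.03 and 1.07, with ranges from 0.912 to 1.19 and from 0.933 to 1.28. Under the MSC KO label, 63 genes were higher in the first table (75.9%; all genes 49.4%) and 76 in the other (91.6%; all genes 44.1%). Higher in both tables were 59 genes (71.1%; all genes 31.2%), and lower in both were 3 (3.61%; all genes 37.5%). Of the rest, 4 were higher in the first table alone and 17 in the second alone. The count against 0 moves with the scale. With each library rescaled to the same summed FPKM of symbols, 31 genes were higher (all genes 26.5%) and 8 lower in both tables, with medians of -0.0093 and 0.073. With quantile normalization the counts were 24 (all genes 29.8%) and 11, and the medians 0 and 0.022. The share of all genes that was lower in both tables is not given for either scale. Rescaling a library shifts all its genes nearly alike, so by construction it could hardly change the distance between the median of the 83 and that of all genes. That distance was 0.081 in the fit, against 0.085 as deposited. With quantile normalization that distance was 0.036. In the first table the median of all genes went from -0.0024 to -0.049 with the rescaling and to -0.029 with quantile normalization. In the second it went from -0.041 to -0.068 and -0.036. The shift by rescaling in the first table was about the size of the median difference of the 83 there (0.044).

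In the limma fit, blocked by table and adjusted by Benjamini-Hochberg over all genes, 0 of the 83 genes passed an adjusted p of 0.05 (all genes 0.00943%, which is 1 gene). At an unadjusted p under 0.05 there were also 0 (all genes 20.4%), 0 of them higher (all genes 9.2%) and 0 lower (all genes 11.2%). The smallest adjusted p was 0.245, for Rplp1. The authors' deposited tables marked 0 of the 83 as significant in either table, against 0.632% and 0.556% of all genes. The 95% interval of the fitted difference lay inside -0.5 to 0.5 for 81 of the 83, and reached a 2-fold change (1 on the log2 scale) for 0. Without MSC KO 1 or MSC KO 2, the fit had no block and took the lone library to vary like the other group. The median of the 83 less that of all genes was then 0.13 and 0.059. Calls were made there for a smaller share of the members than of all genes, and they are not evidence of a difference in the members.

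**Figure D2:**
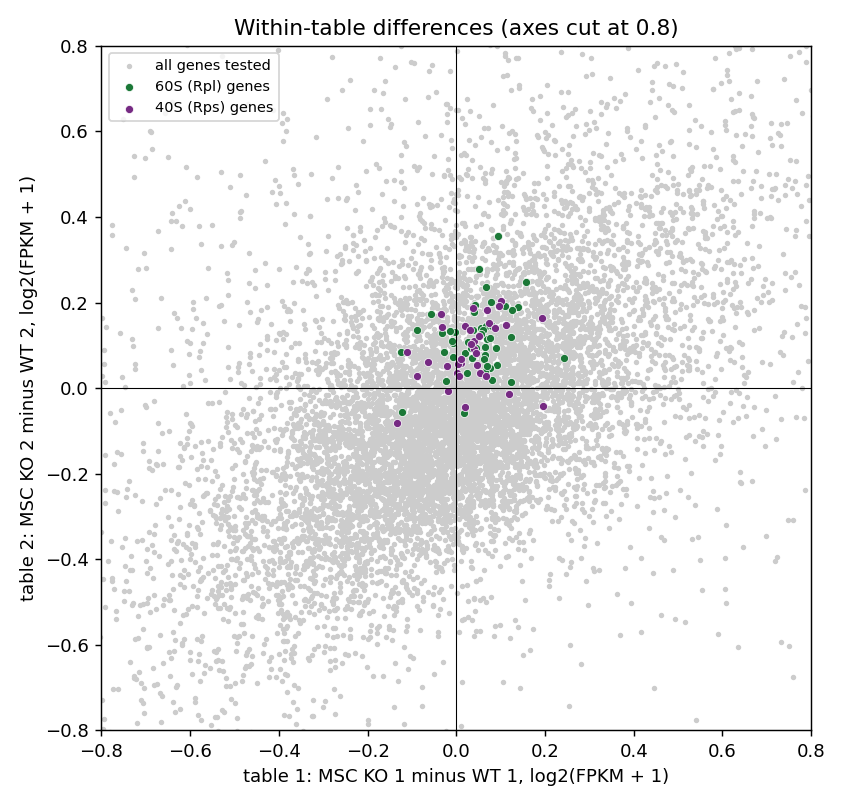
Difference in the first table (horizontal, MSC KO 1 minus WT 1) against that in the second (vertical, MSC KO 2 minus WT 2), both on the log2(FPKM + 1) scale, for all genes tested (grey, axes cut at 0.8) and the 49 large-subunit (green) and 34 small-subunit (purple) genes. The ribosomal protein genes form a tight cloud, with 76 of 83 above 0 on the vertical axis and 63 of 83 right of 0 on the horizontal one.

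Within the set the 2 tables ranked the differences only loosely, with r = 0.28 (Pearson) and rho = 0.30 (Spearman) across the 83 genes, against 0.34 and 0.54 across all genes tested, whose differences span a wider range. The differences stayed within 0.25 in both tables for 81 genes (97.6%), against 44.1% of all genes tested, most of which have far lower levels. Of 118 other symbols with a mean of at least 500 FPKM, 56.8% stayed within that width. The interquartile range of the differences was 0.073 and 0.090 for the ribosomal protein genes, 0.25 and 0.27 for those 118 genes, and 0.39 and 0.37 for all genes. The width was a description and was chosen with the values known.

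With the table as a block, the error of the fit came from how far the 2 within-table differences disagreed, and from the prior. The spread between replicate libraries is given here as a description. Between WT 1 and WT 2 the median absolute difference of the 83 genes was 0.034, and between MSC KO 1 and MSC KO 2 it was 0.086, about the size of the differences between labels (0.057 and 0.10). Counting error was smaller than either, at about 0.0079 for a difference between libraries, from the estimated fragments of the core and stalk genes. That estimate covers counting error only. MSC KO 2 was the highest of the 4 libraries for 64 genes (77.1%; all genes 25.8%), MSC KO 1 for 14, WT 1 for 3 and WT 2 for 2. MSC KO 2 lay above MSC KO 1 for 69 of 83 (all genes 48.0%). For 49 genes (59.0%; all genes 26.6%) both MSC KO-labelled libraries lay above both WT, and for 3 (3.61%; all genes 32.5%) both lay below.

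**Figure D3:**
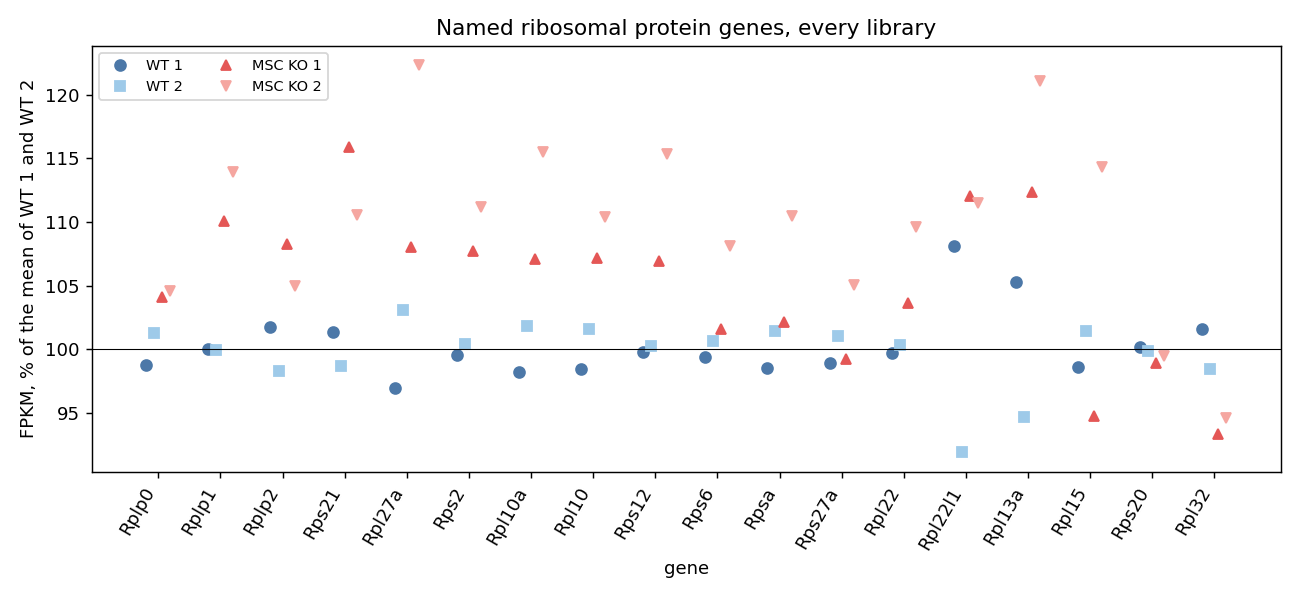
FPKM of 18 named genes (horizontal) in each library as a percentage of the mean of WT 1 and WT 2 (vertical, not starting at 0; the line marks 100%), with 1 symbol per library. Both MSC KO symbols lie above both WT symbols in every gene drawn but Rps27a, Rpl15, Rps20 and Rpl32 (all genes tested 26.6%). In Rps20 and Rpl32 both lie below, in Rpl15 they lie on either side, and in Rps27a MSC KO 1 lies between the WT symbols. Many of the genes were picked for their differences in these values.

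The stalk genes all lay above WT. Rplp1 had a fitted difference of 0.16 ± 0.055 (SE, n = 2 libraries per group, adjusted p = 0.245, limma), with 0.14 and 0.19 in the single tables. Rplp2, its partner, was at 5164 and 4990 FPKM in WT, against 5495 and 5328 FPKM under the MSC KO label, 0.092 ± 0.060 (adjusted p = 0.456, limma). Rplp0, which anchors the stalk to the ribosome, was at 4281 and 4391 against 4514 and 4535 FPKM, a difference of 0.062 ± 0.062 (adjusted p = 0.610, limma). With quantile normalization its difference was -0.017, and that of Rplp1 was 0. In each of the 3 both MSC KO-labelled libraries exceeded both WT (all genes 26.6%).

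The largest differences above WT shared by both tables were, after Rps21 and Rpl27a, those of Rplp1, Rpl10a, Rpl10 and Rps2. Rps21 (chromosome 2, mm9, 179992083 to 179993149), a small-subunit protein whose promoter is printed above, was at 4319 and 4205 FPKM in WT, against 4940 and 4712 FPKM under the MSC KO label. Its groups did not overlap, and the fitted difference was 0.18 ± 0.062 (adjusted p = 0.252, limma). Rpl27a was at 2349 and 2496 against 2618 and 2963 FPKM, 0.20 ± 0.070 (adjusted p = 0.255, limma). Rpl10a, which binds near the exit site, was at 2400 and 2488 against 2617 and 2822 FPKM. Rpl10, whose addition is a late step of 60S maturation, was at 3230 and 3333 against 3518 and 3623 FPKM. Rps2, near the path of the messenger RNA, was at 5776 and 5824 against 6247 and 6449 FPKM. In each of these 5 genes the lower MSC KO-labelled library stood above the higher WT one (all genes 26.6%). The genes were picked for their differences in these same values, which favours such a gap, so it is a description only.

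Of the 3 genes below WT in both tables, Rpl32 and Rps20 are described here. Rpl32 was at 5061 and 4903 FPKM in WT, against 4651 and 4715 FPKM under the MSC KO label, -0.089 ± 0.063 (adjusted p = 0.486, limma). Rps20 was nearly level, at 7185 and 7163 against 7096 and 7134 FPKM, -0.012 ± 0.058 (adjusted p = 0.925, limma). The signs of both held under all 15 alternatives run. Both genes were picked for that sign in these same values, and most alternatives could not change it. The count is therefore a description only.

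Genes with known roles outside bulk translation were close to the rest. Rps6, the substrate of the S6 kinases and so a common readout of mTORC1, was at 2658 and 2692 FPKM in WT, against 2718 and 2891 FPKM under the MSC KO label, 0.068 ± 0.068 (adjusted p = 0.611, limma). Rpsa, also known as the laminin receptor, was at 3609 and 3714 against 3740 and 4044 FPKM. Rps27a, which is made as a fusion with ubiquitin, was at 3572 and 3650 against 3583 and 3795 FPKM, and its groups overlapped. Rpl5 (1620 and 1699 against 1707 and 1842 FPKM) and Rpl11 (4006 and 3979 against 3941 and 4025 FPKM) bind Mdm2 when ribosome assembly stalls. Their fitted differences were 0.096 ± 0.070 and -0.0034 ± 0.063 (adjusted p = 0.496 and 0.983, limma). The groups of Rpl11 overlapped. Those of Rpl5 lay apart (all genes 26.6%) only by 1707 FPKM for MSC KO 1 over 1699 FPKM for WT 2. A difference between these 2 genes was not tested. Rpl22 had a difference of 0.092 ± 0.081 (adjusted p = 0.563, limma). The choice of these 2 partners of Mdm2 followed their values.

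The 2 tables differed most in Rpl13a, Rps19bp1, Rpl15 and Rpl22l1. Rpl13a, known as part of an interferon-responsive translation inhibitor complex, was at 4666 and 4195 FPKM in WT, against 4979 and 5366 FPKM under the MSC KO label, with differences of 0.094 and 0.36. WT 2 was the lowest of the 4 libraries. Rpl15 was at 1075 and 1106 against 1034 and 1247 FPKM, with differences of -0.057 and 0.17. In Rpl22l1 the differences were 0.052 and 0.28, again with the lowest value in WT 2. Rps19bp1 had differences of 0.19 and -0.042. Of the 7 tested copies and relatives, 7 lay above WT in the first table but 4 in the other, and MSC KO 2 was above MSC KO 1 in 2.

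The subunits had similar medians, a difference that was not tested. Of the 49 tested large-subunit genes 36 were higher and 1 lower in both tables, with medians of 0.056 and 0.11. Of the 34 small-subunit genes 23 were higher and 2 lower, with medians of 0.035 and 0.084. Of the 13 core and stalk genes with the run at the annotated start the median differences were 0.040 and 0.10, and of the 43 without it 0.056 and 0.12. The mean level was 4579 FPKM at the median for the 13 and 3447 FPKM for the 43. The difference between these classes was not tested.

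Other genes of the translation machinery had other patterns across the libraries. In the list of translation factors and TOP genes, 25 of 27 were tested and 0 passed by limma (1 at an unadjusted p under 0.05, 4% against 20.4% of all genes). Of these 11 were higher (44%; all genes 31.2%) and 4 lower (16%; all genes 37.5%) in both tables, with medians of 0.017 and 0.050. Eef1a1, the factor that brings transfer RNA to the ribosome, was at 7998 and 8258 FPKM in WT, against 7670 and 8962 FPKM under the MSC KO label. Eef2, the translocation factor, was at 2293 and 2345 against 2267 and 2434 FPKM. Both overlapped between groups. Snhg1, a TOP host gene of small nucleolar RNAs, had the largest shared difference of the list (447 and 452 against 559 and 621 FPKM, 0.39 ± 0.088, adjusted p = 0.179, limma). Eef1b2, an exchange factor subunit, was at 879 and 913 against 1001 and 1104 FPKM, Npm1 (nucleophosmin) at 1623 and 1660 against 1783 and 1837 FPKM, and Eif4a2, a helicase, at 160 and 162 against 180 and 219 FPKM.

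Ribosome biogenesis genes, which process ribosomal RNA and assemble subunits, had larger differences in the first table. Of 49 tested, 29 were higher (59.2%; all genes 31.2%) and 5 lower (10.2%; all genes 37.5%) in both tables, with medians of 0.23 and 0.041. By limma 0 passed. At an unadjusted p under 0.05 there were 7 (14.3%; all genes 20.4%), 6 of them higher (12.2%; all genes 9.2%). Rrp12, an export factor of pre-ribosomes, was at 7.27 and 7.46 FPKM in WT, against 15.9 and 11.0 FPKM under the MSC KO label (0.77 ± 0.17, adjusted p = 0.175, limma). Polr1c, shared by RNA polymerases I and III, was at 69.9 and 69.5 against 95.3 and 98.6 FPKM. Ltv1 (21.9 and 22.4 against 32.1 and 29.4 FPKM) and Utp20 (2.48 and 2.74 against 3.61 and 4.05 FPKM), both of small-subunit assembly, were likewise above WT in both. MSC KO 1 was the highest library for 36 of the 49 (73.5%; all genes 29.7%), where MSC KO 2 was the highest for 64 of the 83 ribosomal protein genes. Mitochondrial ribosomal proteins, which serve the organelle, had MSC KO 1 highest for 38 of 73. Their medians were 0.056 and -0.042 in the first and second table, with 23 higher in both, a share near that of all genes (31.5%; all genes 31.2%), and 15 lower (20.5%; all genes 37.5%). By limma 0 of them passed, and 2 had an unadjusted p under 0.05 (2.74%; all genes 20.4%). The shared values of Mrpl13 were 131 and 128 FPKM in WT, against 97.0 and 102 FPKM under the MSC KO label (-0.38 ± 0.093, adjusted p = 0.190, limma). Mrpl16 (47.3 and 43.0 against 36.8 and 36.0 FPKM) and Mrps11 (36.2 and 35.5 against 31.2 and 29.5 FPKM) were below WT too, and Mrps2 (15.5 and 16.6 against 18.1 and 19.2 FPKM) above. The differences between these lists and the ribosomal protein genes were not tested.

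**Figure D4:**
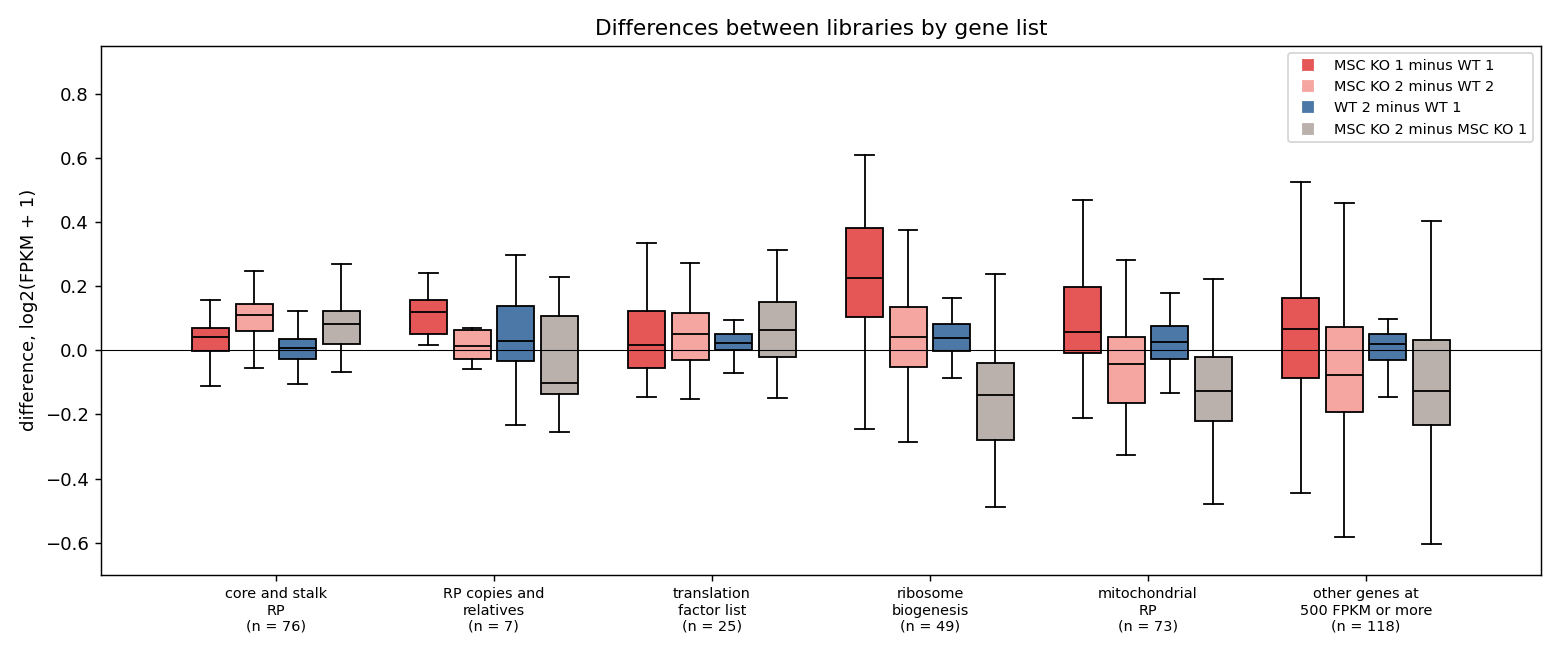
Difference between libraries on the log2(FPKM + 1) scale (vertical) for 6 gene lists (horizontal), with boxes for the first table, the second table, WT 2 minus WT 1 and MSC KO 2 minus MSC KO 1 (line median, box quartiles, whiskers to 1.5 times the box, points beyond not drawn). For core and stalk ribosomal protein genes MSC KO 2 lies above MSC KO 1 (median 0.083), while for ribosome biogenesis genes (-0.14) and mitochondrial ribosomal proteins (-0.13) it lies below.

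Genes that control ribosomal protein synthesis, 21 tested of 22, had 4 higher (19%; all genes 31.2%) and 8 lower in both tables, the latter a share near that of all genes (38.1%; all genes 37.5%), with medians of -0.0044 and -0.036. By limma 0 passed (1 at an unadjusted p under 0.05, 4.76% against 20.4% of all genes). Myc, which drives ribosome production in activated T cells, was at 104 and 110 FPKM in WT, against 101 and 119 FPKM under the MSC KO label, and the groups overlapped. Its partner Max lay below WT in both tables (74.2 and 73.3 against 48.8 and 52.9 FPKM, -0.53 ± 0.096, adjusted p = 0.152, limma). Larp1, the TOP-binding protein, was at 43.5 and 46.4 against 45.0 and 42.4 FPKM. Mtor differed more between the tables (11.3 and 6.19 FPKM in WT, 16.3 and 7.28) than between the labels. Gabpb1, a subunit of the factor GABP, was at 29.0 and 29.6 against 23.6 and 26.2 FPKM, and Eif4ebp2, an inhibitor of cap-dependent translation, at 52.5 and 57.0 against 46.3 and 50.7 FPKM.

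Introns of many ribosomal protein genes hold small nucleolar RNAs, which guide the modification of ribosomal RNA. Listed in the first table were 32 small RNA symbols at exactly the interval of a ribosomal protein gene, for 23 such genes in all, and 31 of the 32 were tested. The only gene called by limma over all genes, Rnu73b, was among them. It was listed on chromosome 3 (mm9, 85941861 to 85946590), the interval of Rps3a, with 0 FPKM for either WT library against 110 FPKM for MSC KO 1 and 135 FPKM for MSC KO 2 (adjusted p = 0.0402, limma). The call depended on the settings. Over the alternatives that kept all 4 libraries, 0 to 153 genes were called. The fit called 0 genes with no filter, with quantile normalization and with a prior without trend. The same held with symbols other than ribosomal protein genes as the scale. Rps3a itself was at 3240 and 3309 FPKM in WT, against 3252 and 3374 FPKM under the MSC KO label. A second small RNA of that gene, Snord73a, was listed at 333, 0, 0 and 126 FPKM in WT 1, WT 2, MSC KO 1 and MSC KO 2. Of the 31, 22 were at least 2-fold apart in 1 table or both, 7 in the same direction in both and 6 in opposite directions, and 12 were listed at 0 in at least 1 library. Of the ribosomal protein genes 0 were 2-fold apart in both tables (all genes 2.13%). Snora70 in Rpl10 was at 39.0, 58.4, 101 and 128 FPKM, and Snord83b in Rpl3 at 152, 73.9, 392 and 336 FPKM, while Snord4a in Rpl23a was at 386, 339, 70.6 and 119 FPKM. The choice of these examples followed their values. FPKM values of RNAs as short as these rest on few reads and on the length correction, whose part in the differences was not tested.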

How the data were processed

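RNA-seq libraries, 2 labelled WT and 2 labelled MSC KO, were used as the authors deposited them, in 2 gene-level tables. The submitters' processing notes name TopHat and mm9, per the labels. Versions, annotation and counting program: not given in the sources used here. From the column layout, the values the authors deposited are FPKM, and each row also has their p-value with its q-value from comparing 1 library with 1. Rows without a symbol were left out. For a repeated symbol the row of highest mean stood, and symbols were dropped for loci that did not overlap (3) or failed estimates (6). Values were tested as log2(FPKM + 1), mean of at least 1 FPKM, with limma 3.58.1 (R 4.3.3), the table as a block, a trended prior (2.36 prior and 1 residual degrees of freedom), two-sided, Benjamini-Hochberg over 10603 genes, threshold 0.05. On simulated data for this comparison (10603 genes, 200 planted), 41% of 2-fold and 99% of 4-fold changes were recovered, with 1 false call of 141. The simulated noise was independent between libraries, without a table effect, and changes were planted only above a minimum level. In the deposited values 226 genes were 2-fold apart in the same direction in both tables, and limma called 1 gene. The simulated recovery therefore does not give the power of the fit on these libraries. Depth came from genes with 1 GENCODE M21 transcript over 2500 bp, lengths from protein-coding transcripts matched by name for 84 of 85 genes. Tables were handled in Python 3.11.15 with pandas 2.3.3. The members, the lists and the comparisons were chosen with earlier results of these data known.

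The named genes were the 6 largest rises and up to 6 falls shared by both tables, the 4 most different between tables, the 4 highest and 4 lowest, copies, the stalk genes, Rpsa, Rps6, Rps27a and Rpl22, and up to 4 genes of each other list. Alternatives changed the pseudocount, filter, scale, repeated rows, prior, block, small RNA symbols and libraries. Some single-gene results are not reported here.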

Additional observations from a re-analysis of the deposited data

How the results depend on the processing

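The signs of 16 of the 27 named genes held under all 15 alternatives, and 0 members passed by limma except without MSC KO 1 or MSC KO 2. Some named genes were picked for a shared sign in these same values, which favours a sign that holds. A pseudocount of 0.1, no filter, a filter of 10 FPKM, median centring, summed rows, a prior without trend and leaving out small RNA symbols left the counts in both tables at 59 or 60 higher and 3 lower. With each library rescaled to the same summed FPKM of symbols, 31 were higher (all genes 26.5%) and 8 lower in both tables. The medians were -0.00927 in the first table and 0.0256 in the fit, and Rps27a was at -0.0116. With quantile normalization, 24 were higher (all genes 29.8%) and 11 lower, 46 had a positive fitted difference, and the medians were 0, 0.022 and 0.00501. The shares of all genes that were lower, or positive in the fit, are not given for these scales, so those counts stand without a background. There Rpl15 was at -0.0997, Rpl36al at -0.137, Rplp0 at -0.0172, Rps27a at -0.0025, Rps27l at -0.017 and Rps6 at -0.00536. With the sum of symbols other than ribosomal protein genes as the scale, chosen after the data were seen, 33 were higher in both (all genes 28.7%). The first median was then -0.0151. Both rescalings shift all genes of a library alike, the all-gene median of the first table going from -0.0024 to -0.049 and -0.055. The fitted median of the members less that of all genes was 0.085 as deposited. It was 0.081 and 0.083 with the rescalings, which by construction could hardly change it. With quantile normalization it was 0.036, where the cause was not tested.

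Leaving out 1 library, fitted with no block, gave 0 to 6 members called, 59 to 76 positive differences and medians from 0.0411 to 0.107; counts in both tables cannot be formed then. Members were called only without MSC KO 1 or MSC KO 2, and there a smaller share of members than of all genes was called. Those fits take the lone library to vary like the other group, so their calls are not evidence of a difference in the members. Over the 4 settings with 1 library left out the fitted difference changed sign for Rpl15 (-0.0775 to 0.193), Rpl36al (-0.00868 to 0.145), Rpl39l (-0.169 to 0.128), Rps19bp1 (-0.0518 to 0.204), Rps27a (-0.0114 to 0.0716) and Rps4y2 (-0.0644 to 0.166). With no replicate block 0 members and 153 genes passed. Same-numbered libraries deviated together with a correlation of 0.059 over all genes and 0.466 over the members, and 2 pairs do not establish a pairing. Depth limits Rpl39l most.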

Other observations

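A row that joins Rpl34 with its pseudogene Rpl34-ps1 fell outside the set. Its FPKM was 5487 (WT 1) against 5512 (MSC KO 1) in the first table and 5325 (WT 2) against 6149 (MSC KO 2) in the second. Its difference, 0.0064 and 0.21 on the log2(FPKM + 1) scale, was larger in the second table, as it was for 68 of the 83 ribosomal protein genes.

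Fau, a ribosomal protein made as a fusion, whose symbol the rule does not take, was at 3808 and 3629 FPKM in WT against 4073 and 3678 FPKM under the MSC KO label, and its groups overlapped.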
